A study of Mus musculus with 18 samples.

Results

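Stellate cell and fibrous matrix genes were followed in bulk RNA of mouse hepatocellular carcinoma. The set holds 34 named genes of the 55335 identifiers in the count table. All 34 were matched by symbol to a single identifier, and all 34 had enough counts to be tested among 17013 genes. They comprise 11 collagen chains, 3 small proteoglycans, 4 genes of elastic fibres and calcifying matrix, 3 cross-linking enzymes, 2 matricellular proteins, 2 proteases with 1 inhibitor, 3 contractile or cytoskeletal proteins, 3 surface proteins and 2 markers of stellate cell identity.

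The 12 libraries formed 4 groups of 3. In the DEN+CCl4 model, N-nitrosodiethylamine (DEN, 1 mg/kg) was given at 14 days of age and carbon tetrachloride (CCl4, 0.2 ml/kg), a liver toxin that itself causes scarring, from 8 weeks of age for 12 to 16 weeks. The other model, N-Ras+AKT, was made by hydrodynamic tail vein injection, which delivered 20 µg each of pT3-EF1a-NRasV12 (activated N-Ras) and pT3-EF1a-myr-AKT (myristoylated AKT) to the liver along with 1.6 µg of Sleeping Beauty transposase. In each model, tumours after depletion of Prom1-expressing cells were set against controls. Depletion used a tamoxifen-inducible Cre expressed from the Prom1 locus, which turns on diphtheria toxin A from the Rosa26 locus in the cells that express Prom1. Tamoxifen doses were 4 mg. The interval from the last dose to collection was 16 days for DEN+CCl4 and 6 days for N-Ras+AKT tumours, so the interval differs between the models. Every bulk library carries the strain label Prom1C-L/+;Rosa26DTA/+, whereas the design text names Prom1+/+;Rosa26DTA/+ littermates as controls and also mentions an olive oil vehicle, so what the controls lacked is not settled. The labels do not say that libraries of a group came from separate animals, and p-values measure only the spread between these libraries.

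Hepatic stellate cells lie between hepatocytes and sinusoidal endothelium and store vitamin A. When the liver is injured they lose these stores, gain contractile proteins and deposit fibrillar collagen, the process behind fibrosis. Transforming growth factor beta drives collagen production and platelet-derived growth factor drives the division of these cells, and portal fibroblasts and vascular smooth muscle make many of the same matrix proteins. In bulk tumour RNA, fewer cells of a type and less RNA per cell cannot be told apart.

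Library totals ran from 31306617 to 48055812 counts. Prom1 itself averaged 61.9 ± 14.0 CPM (counts scaled to a library of 1000000, SD, n = 3) in DEN+CCl4 controls and 31 ± 12.0 after depletion, a log2 difference of -1.0 (SE 0.57) that missed the test (edgeR quasi-likelihood test, Benjamini-Hochberg adjusted p = 0.381). It averaged 60.9 ± 16.5 and 8.15 ± 7.44 CPM in the N-Ras+AKT groups, and there it fell by 2.90 (SE 0.61, adjusted p = 0.00953). Within the depletion groups Prom1 stood at 17.4, 40.0 and 35.6 CPM in DEN+CCl4 libraries 6, 9 and 10. In N-Ras+AKT libraries 6, 11 and 17 it stood at 5.80, 16.5 and 2.16 CPM. Its relation to the member values was not tested. Defining stellate markers were detected in every library, with at least 149 counts of Lrat, 562 of Reln, 50 of Des, 113 of Pdgfrb, 1614 of Dcn and 57 of Col1a1. Per kilobase of exon, the members' mean levels in DEN+CCl4 controls ran from 0.154 CPM per kb for Fbln1 to 32.4 for Sparc, followed by Mmp14 at 15.3, Bgn at 12.7, Reln at 12.5 and Dcn at 11.4. DEN+CCl4 depletion 6 and N-Ras+AKT depletion 17 were the lowest of their groups in the member genes, and are called the 2 low libraries. A library's score was the median over members of log2 CPM minus the gene's mean over the 12 libraries. It was -1.91, -0.19 and -0.08 in DEN+CCl4 depletion 6, 9 and 10, so depletion 6 stood apart. It was 0.87, 0.03 and -0.83 in N-Ras+AKT depletion 6, 11 and 17, where no single library stood apart. Some results are given with and without the 2 low libraries, which keeps the high N-Ras+AKT depletion 6.

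**Figure D1:**
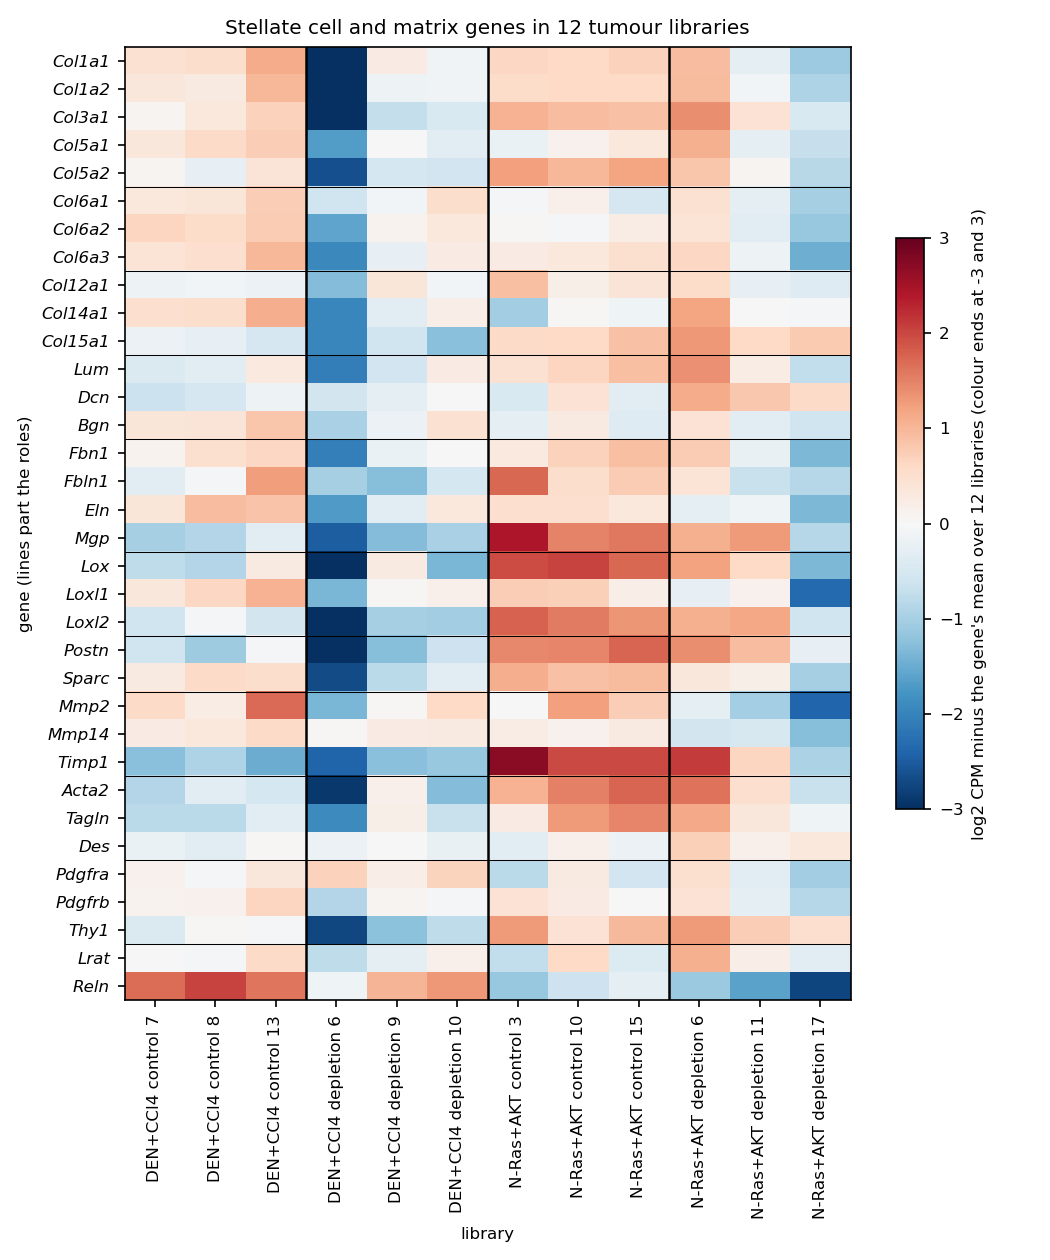
Level of each of the 34 genes (rows, grouped by role) in each of the 12 libraries (columns), as log2 CPM minus the mean of that gene over the libraries, with blue for low and red for high. DEN+CCl4 depletion 6 is low for nearly all genes, N-Ras+AKT depletion 17 is low for most, and Timp1, Mgp, Postn and Loxl2 are higher in N-Ras+AKT than in DEN+CCl4 controls.

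Depletion in the DEN+CCl4 model was examined first. No member passed the test (edgeR, adjusted p under 0.05), 7 of 34 had an unadjusted p under 0.05, limma voom called none, and DESeq2 called 1 lower, Sparc, at an adjusted p of 0.0244. By edgeR 0.37% of all 17013 genes were called and 0.259% were called lower, while 3186 had an unadjusted p under 0.05. DESeq2 called 1066 of the 15679 genes to which it gave an adjusted p, 688 of them lower. Fold changes were nevertheless mostly below 0, with 30 of 34 log2 fold changes negative and a median of -0.84, against a median of -0.01 over all genes tested. In 18 members all 3 depletion libraries lay below all 3 controls, and in none did they all lie above, where 16% of all genes were apart in the lower direction and 11.5% in the higher. Without DEN+CCl4 depletion 6 the median was -0.48, and without DEN+CCl4 depletion 10 it was -1.17.

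With members grouped by role, the fibrillar collagens, which form the tensile fibres of scar, had the lowest median, at -1.18. Col3a1 had the lowest value of any member, while Sparc, Fbln1 and Thy1 lay below all the other fibrillar chains. Col1a1 (chromosome 11, 94936224 to 94953042, plus strand, GRCm38), the major chain of type I collagen, stood at 36.6, 38.5 and 57.3 CPM in the controls and at 1.98, 31.5 and 24.8 CPM in depletion libraries 6, 9 and 10. Its partner chain Col1a2 stood at 44.7, 43.1 and 70.4 CPM in the controls and at 4.32, 31.8 and 33.1 after depletion. Col3a1, the chain of type III collagen, stood at 63.9, 74.9 and 97.1 CPM in the controls and at 3.34, 36.6 and 43.9 after depletion. In all 3 genes the groups did not overlap, and depletion 6 was far below the other 2, at 4.49%, 8.19% and 4.25% of the control mean. The log2 fold changes were -1.18 (SE 0.74, adjusted p = 0.421), -1.19 (SE 0.63, adjusted p = 0.343) and -1.49 (SE 0.71, adjusted p = 0.291) by edgeR. Col5a1 and Col5a2, chains of the type V collagen that nucleates fibrils, had values of -1.08 and -1.05.

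The other collagens ranged more widely. Among the type VI chains, which form beaded filaments around cells, values ran from -0.47 for Col6a1 to -1.03 for Col6a3. Col14a1 and Col12a1 are fibril-associated collagens, and their values of -1.18 and -0.04 differed. Col15a1, a collagen at the edge of basement membranes, stood at 8.5, 7.99 and 6.74 CPM in controls and at 2.47, 6.35 and 4.01 after depletion (log2 -0.85, SE 0.29), and with Sparc it had the smallest adjusted p of any member (0.155, edgeR).

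Sparc, a collagen-binding matricellular protein, stood at 107, 132 and 128 CPM in controls and 13.7, 50.4 and 69.6 CPM after depletion. All depletion libraries were low, the highest of them at 56.7% of the control mean (log2 -1.46, SE 0.49). Thy1, a surface protein of fibroblasts, stood at 0.854, 1.19 and 1.10 CPM in controls and at 0.174, 0.488 and 0.678 after depletion (log2 -1.21, SE 0.42, adjusted p = 0.166 by edgeR). Fbln1 and Eln, of elastic fibres, had values of -1.36 and -1.07, and the microfibril gene Fbn1 of -0.92. The cross-linking enzymes Loxl2, Loxl1 and Lox had values of -1.07, -0.95 and -0.46, and Postn, a matricellular protein, of -0.82 (SE 0.54).

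Proteases, their inhibitor and the calcification inhibitor Mgp shifted less evenly. Mmp14 stood at 83, 86.5 and 104 CPM in controls and at 71.3, 83 and 84.6 after depletion, a small difference with overlapping groups (log2 -0.19, SE 0.18). Mmp2 had -1.02 (SE 0.60), and Timp1 stood at 0.854, 1.07 and 0.723 CPM and at 0.383, 0.862 and 0.925 (log2 -0.28, SE 0.68). Mgp stood at 1.07, 1.16 and 1.68 CPM in controls and at 0.383, 0.862 and 1.08 after depletion (log2 -0.74, SE 0.55). Depletion 6 was the lowest of the 3 depletion libraries in each of these 4 genes. The small proteoglycans Bgn and Lum had values of -0.67 (SE 0.36) and -0.39 (SE 0.57).

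The contractile and cytoskeletal genes had a median of 0.03, and none of the 3 was apart between the groups. Acta2, smooth muscle actin and the classic marker of the activated stellate cell, stood at 1.99, 2.89 and 2.52 CPM in controls and at 0.487, 4.02 and 1.48 after depletion, with depletion 9 above and the other 2 below every control (log2 -0.29, SE 0.68). Tagln, an actin-binding protein, ran from 3.31 to 4.66 CPM in controls and stood at 1.53, 6.55 and 3.64 after depletion. Its annotated exons share 62.4% of their bases with the antisense gene Gm48529, which had at most 124 counts in a library, and strand use in counting is not given in the sources used here. Des, the intermediate filament desmin, was between 1.63 and 2.08 CPM in controls and between 1.76 and 2.04 after depletion.

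Among the receptors, Pdgfrb, which receives PDGF-BB and PDGF-DD on stellate cells, stood at 7.76, 7.91 and 11.2 CPM in controls and at 3.93, 7.64 and 7.09 after depletion (log2 -0.52, SE 0.32). Pdgfra stood at 6.16, 5.57 and 7.20 CPM in controls and at 9.22, 6.52 and 8.94 after depletion, with 2 of 3 depletion libraries above every control (log2 0.38, SE 0.36). Dcn, decorin, a proteoglycan that coats collagen fibrils and is abundant in resting stellate cells, stood at 57.4, 62.6 and 80.4 CPM in controls and at 60.5, 73.8 and 89.8 after depletion. These groups overlapped, and the log2 fold change was 0.16 (SE 0.25).

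The vitamin A enzyme Lrat, which esterifies retinol for storage, stood at 8.68, 8.60 and 13.1 CPM in controls and at 5.19, 7.15 and 9.68 after depletion (log2 -0.46, SE 0.42). Reln, reelin, a secreted glycoprotein that stellate cells express in liver, stood at 276, 352 and 260 CPM in controls and at 78.4, 174 and 212 after depletion. Its groups did not overlap (log2 -0.94, SE 0.43, adjusted p = 0.273 by edgeR).

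Depletion in the N-Ras+AKT model was examined in the same way. Here 1 member rose and 1 fell by edgeR, 5.88% of the 34, where 23.7% of all genes were called. Log2 fold changes were negative for 26 of 34 members, with a median of -0.51 against -0.02 over all genes. In 11 members the depletion libraries all lay below the controls and in 1 all above, where 43% of all genes were apart in either direction, 21.5% lower and 21.4% higher. The median was -0.24 without N-Ras+AKT depletion 17 and -1.01 without N-Ras+AKT depletion 6.

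Dcn (chromosome 10, 97479609 to 97518143, plus strand) rose. It stood at 64.6, 121 and 70.5 CPM in the controls and at 192, 157 and 133 CPM in depletion libraries 6, 11 and 17. The groups did not overlap, and the log2 fold change was 0.91 (SE 0.25, adjusted p = 0.0227 by edgeR). Leaving out control 3, control 15 or depletion 6 raised its adjusted p to 0.0827, 0.0806 and 0.076, and fitting only the 6 libraries of the model raised it to 0.0551, so the call rests on these choices.

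Mmp14 (chromosome 14, 54431612 to 54445364, plus strand), the membrane-bound matrix metalloproteinase that cuts fibrillar collagen and activates Mmp2, fell. It stood at 81.8, 76.6 and 84.6 CPM in the controls and at 47.3, 49.7 and 28.9 CPM after depletion. The highest depletion library was well below the lowest control (log2 -0.95, SE 0.18, adjusted p = 0.00545 by edgeR), and leaving out any of the 12 libraries kept the call. Its substrate Mmp2, a gelatinase, stood at 3.18, 7.45 and 5.31 CPM in controls and at 2.58, 1.56 and 0.609 after depletion (log2 -1.75, SE 0.61, adjusted p = 0.0623). Timp1, an inhibitor of metalloproteinases, stood at 13.3, 8.04 and 8.03 CPM in controls and at 8.74, 3.21 and 1.06 after depletion (log2 -1.18, SE 0.58, adjusted p = 0.163).

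**Figure D2:**
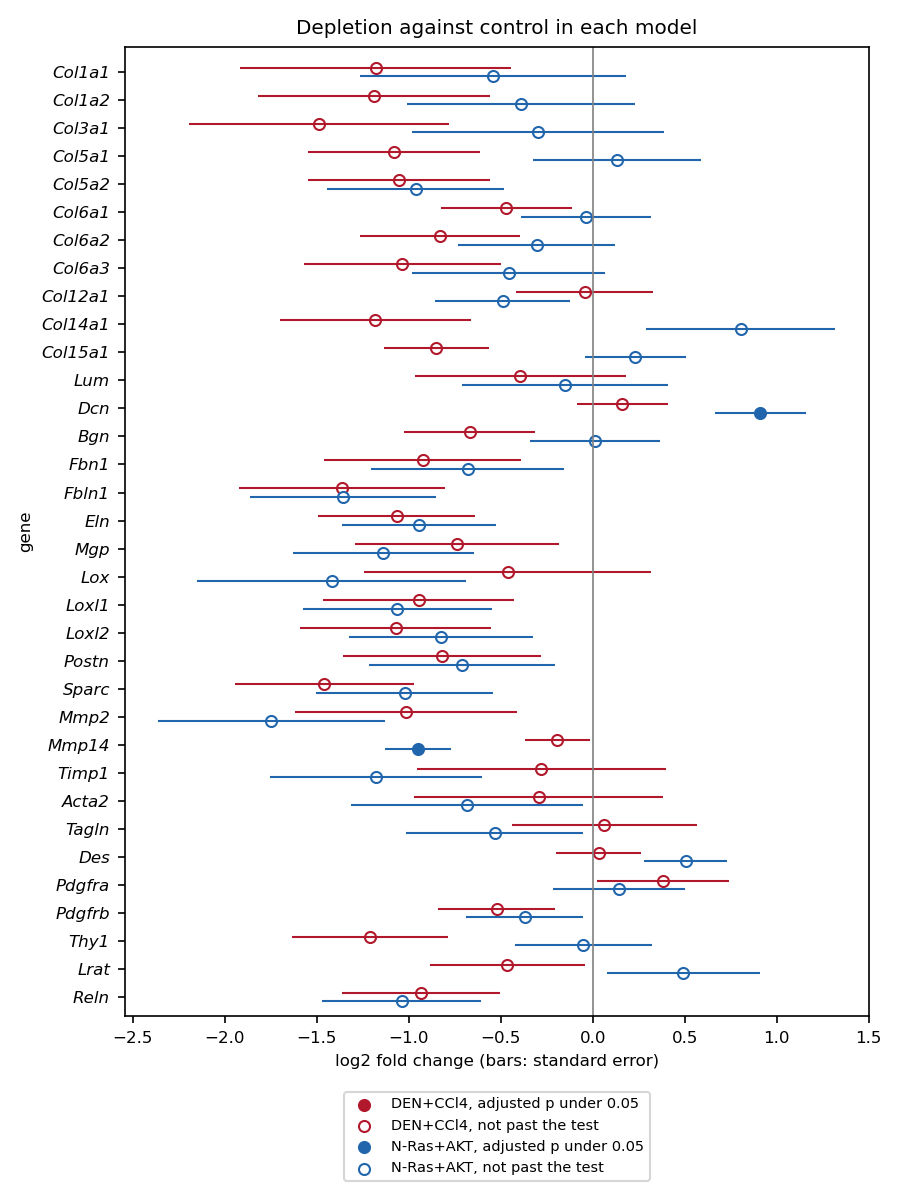
Log2 fold change of depletion against control with its standard error for each of the 34 genes, in DEN+CCl4 (red) and N-Ras+AKT tumours (blue), with filled points for an adjusted p under 0.05. Dcn and Mmp14 in N-Ras+AKT tumours are the filled points, and 30 of 34 red points lie below 0.

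Matrix proteins and their cross-linkers also had negative values. Lox, lysyl oxidase, which starts the cross-linking of collagen and elastin, stood at 8.61, 9.05 and 7.37 CPM in controls and at 5.11, 3.37 and 0.879 after depletion (log2 -1.42, SE 0.73, adjusted p = 0.184 by edgeR). Mgp, matrix Gla protein, an inhibitor of calcification, stood at 11.5, 6.03 and 6.34 CPM in controls and at 4.49, 5.19 and 1.17 after depletion (log2 -1.14, SE 0.49, adjusted p = 0.115). Sparc stood at 187, 162 and 172 CPM in controls and at 113, 99.1 and 44.6 after depletion (log2 -1.02, SE 0.48, adjusted p = 0.149). Every depletion library was lower in these 3 genes, and depletion 17 was the lowest each time. Fbln1 had -1.36 (SE 0.51, adjusted p = 0.0721), Loxl1 -1.06, Eln -0.94, Loxl2 -0.82, Postn -0.71 and Fbn1 -0.68. In Fbln1, Eln, Mgp, Lox, Loxl1, Loxl2, Postn, Sparc, Mmp2, Mmp14 and Col5a2 all depletion libraries lay below all controls. Limma voom called Col5a2, Mgp, Lox, Mmp2 and Timp1 lower beside Mmp14, and DESeq2 called Mmp2, Reln and Mmp14. Over all genes limma voom called 2095 of 17013 lower and DESeq2 2243 of 16998.

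The 11 collagen chains had a median of -0.31, and none passed the test by edgeR, while limma voom called Col5a2. Of these chains 0 had an unadjusted p under 0.05 by edgeR, where 6346 of all 17013 genes did. Col1a1 stood at 40.9, 40.0 and 42.8 CPM in controls and at 50.4, 22 and 12.5 after depletion (log2 -0.54, SE 0.72). Col1a2 stood at 51.9, 53.2 and 53.2 CPM in controls and at 68.7, 33.6 and 18.7 after depletion (log2 -0.39, SE 0.62). Col3a1 stood at 124, 113 and 111 CPM in controls and at 158, 80.8 and 43.9 after depletion (log2 -0.30, SE 0.69). Controls agreed closely in these genes, while the depletion libraries spread from above to below them in the same order in each gene. Of the other collagens, Col5a2 had -0.96 (SE 0.48) and Col5a1 0.13 (SE 0.46), the 3 type VI chains lay between -0.04 and -0.46, Col12a1 had -0.49, Col15a1 0.23 and Col14a1 0.81 (SE 0.51). The proteoglycans Lum and Bgn had -0.15 and 0.01, unlike Dcn, which lies 47.0 kb from Lum on chromosome 10.

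Activation markers and receptors also overlapped between the groups. Acta2 stood at 7.49, 10.4 and 12.2 CPM in controls and at 11.3, 5.13 and 2.30 after depletion, and Tagln at 6.83, 13.9 and 16.1 and at 12.8, 7.39 and 5.34. Pdgfrb stood at 9.68, 8.5 and 7.15 CPM in controls and at 9.67, 5.92 and 4.01 after depletion, and Pdgfra at 3.23, 6.79 and 3.79 and at 7.93, 4.56 and 2.77. Thy1 stood at 2.77, 1.55 and 2.26 CPM in controls and at 2.77, 1.94 and 1.65 after depletion. None of these 5 passed the test.

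Des and the 2 markers of stellate cell identity gave a mixed picture. Des stood at 1.65, 2.28 and 1.82 CPM in controls and at 3.34, 2.27 and 2.55 after depletion (log2 0.50, SE 0.22, adjusted p = 0.123 by edgeR), and Lrat at 5.26, 13.2 and 6.64 and at 18.4, 10.1 and 6.90 (log2 0.49, SE 0.41). Reln stood at 38.8, 55.5 and 71.3 CPM in controls and at 39.8, 28.2 and 12.7 after depletion (log2 -1.04, SE 0.43, adjusted p = 0.107).

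Whether the 2 models differed in the depletion effect was tested directly. No member passed (edgeR), where 11.6% of all genes were called. An unadjusted p under 0.05 was found in 3 of 34 members and in 4940 of all 17013 genes. DESeq2 called Col14a1 higher and Mmp14 lower, and 2984 of 16998 genes in all. The smallest adjusted p belonged to Mmp14 (difference -0.76, SE 0.25, adjusted p = 0.0721), followed by Col15a1 (1.08, SE 0.40, adjusted p = 0.0981) and Col14a1 (1.99, SE 0.73, adjusted p = 0.104). Col14a1 stood at 43.2, 44.2 and 65.2 CPM in DEN+CCl4 controls and 7.83, 24.1 and 35.3 after depletion, and at 14.9, 31 and 27.8 and then 69.5, 30.2 and 29.2 CPM in the N-Ras+AKT groups. Over the 34 members the differences ran from -0.96 for Lox to 1.99 for Col14a1. The median difference was 0.24, and it was -0.12 without DEN+CCl4 depletion 6 and -0.16 without N-Ras+AKT depletion 6. By edgeR on all 12 libraries, the fall of Mmp14 and the rise of Dcn in N-Ras+AKT tumours are therefore not shown to differ from the DEN+CCl4 values of -0.19 and 0.16. The Mmp14 difference was called by DESeq2 (adjusted p = 0.034) and by edgeR without N-Ras+AKT depletion 11 (adjusted p = 0.0411). That of Dcn was called by edgeR without N-Ras+AKT control 10 (1.09, adjusted p = 0.0276).

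Single libraries were then described as a percentage of the mean of the controls in their own model. Counts below or above all controls were made for the members only. The share of all genes in each library was not counted, so whether the members differ from other genes was not tested. DEN+CCl4 depletion 6 was below all its controls in 31 of 34 members, at a median of 22.4% of the control mean. Its fibrillar collagens had a median of 8.19%, its cross-linking enzymes one of 15.8%, and Sparc stood at 11.2%. Against this, Dcn was at 90.5%, Des at 98.9%, Mmp14 at 78.3%, Lrat at 51.2% and Pdgfra at 146%. Other stellate cell or fibroblast genes were as low as matrix genes in this library, with Thy1 at 16.6%, Acta2 at 19.7%, Lum at 25.7%, Reln at 26.5% and Pdgfrb at 43.9%. Among the collagens Col12a1 and Col6a1 were the least reduced, at 44.7% and 47.0%.

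DEN+CCl4 depletion 9 was below all controls in 26 members and above all in 4, at a median of 66.5%. Those above were Tagln at 174%, Acta2 at 163%, Lox at 155% and Col12a1 at 141%. DEN+CCl4 depletion 10 was below in 20 and above in 3, at a median of 75.6%. All 5 fibrillar collagens were below every control in each of the 3 libraries.

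The N-Ras+AKT depletion libraries went in different directions. Library 6 was above all its controls in 16 members and below all in 11, at a median of 114%. Of its 11 collagen chains 9 were above every control, with Col14a1 at 283% and Col5a1 at 193%, while Mmp2 was at 48.5% and Loxl1 at 56.6%. Library 11 was below in 24 members, at a median of 68.4%. Library 17 was below in 28 members, at a median of 35.6%, with Lox at 10.5%, Timp1 at 10.8%, Mmp2 at 11.5% and Loxl1 at 13.4%, and with Dcn at 156%, Des at 133% and Col14a1 at 119%. Dcn, at 156% to 224%, was above every control in all 3, and the 3 cross-linking enzymes were below every control in all 3.

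**Figure D3:**
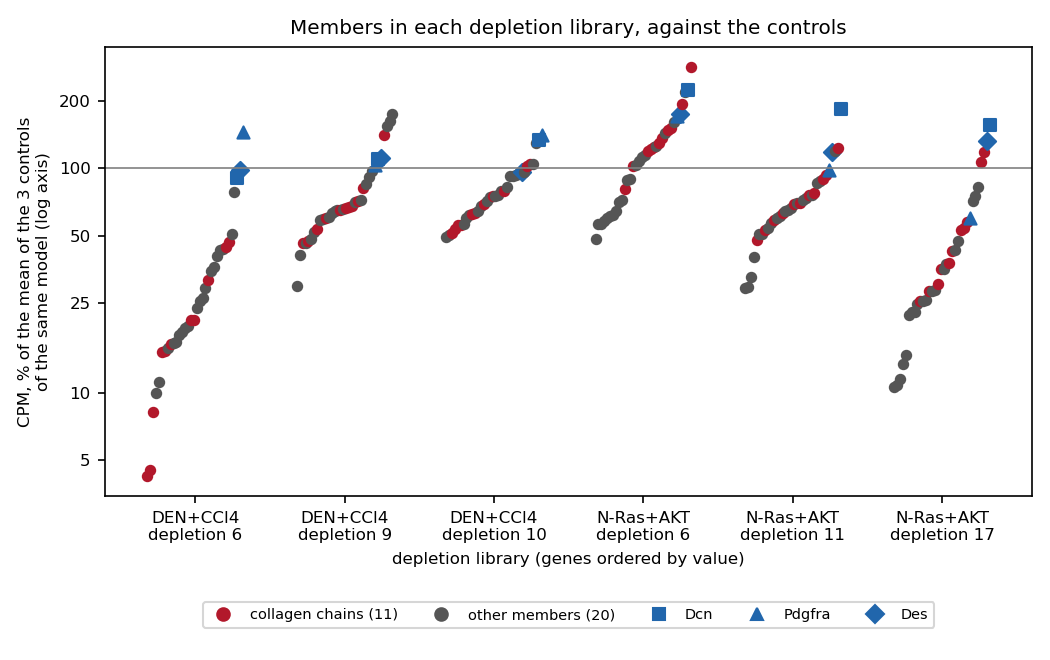
CPM of each of the 34 genes in each depletion library as a percentage of the mean of the 3 controls of the same model (log axis), ordered by value within a library, with collagen chains in red and Dcn, Pdgfra and Des as blue symbols. DEN+CCl4 depletion 6 has a median of 22.4% with Dcn, Des and Pdgfra near or above 90%, and N-Ras+AKT depletion 6 has most collagens above 100%.

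Markers of other cells moved with some of these libraries. Summed CPM of 10 endothelial markers was 341 to 362 in DEN+CCl4 controls and 123 to 247 after depletion, lowest in depletion 6, and each of the 10 was detected in every library. Summed CPM of 9 cholangiocyte markers was 198 to 494 in DEN+CCl4 controls, 48.2 to 155 after depletion, 7142 to 10333 in the controls of the N-Ras+AKT model and 310 to 3484 in its depletion libraries, lowest in depletion 17. Summed CPM of 8 proliferation genes was 5.71 in DEN+CCl4 depletion 6, 139.7 in depletion 9 and 59.2 in depletion 10, against 50 to 81.1 in the controls. Smooth muscle markers summed to 94.6 to 98.6 CPM in DEN+CCl4 controls and 58.9 to 76.7 after depletion, and portal fibroblast markers to 21.8 to 25.7 and 12.7 to 18.9, with Cnn1, Actg2, Myocd, Clec3b and Gli1 at 0 in some libraries. Macrophage markers, each detected in every library, summed to 165 to 350 CPM in the N-Ras+AKT controls against 525 to 718 after depletion, and hepatocyte markers, also all detected, to 71098 to 75560 and 66376 to 82149. Although that hepatocyte sum overlapped, 4 of the 10 markers were called higher after N-Ras+AKT depletion (edgeR, median 0.53), where 12.8% of all genes were. In DEN+CCl4 tumours the hepatocyte sum was 192308 to 248291 in controls and 163383 to 208886 after depletion. Of the 10, 8 were lower in N-Ras+AKT than in DEN+CCl4 controls (edgeR, median -1.65), where 19.8% of all genes were called lower. The part of these cells in the member values was not tested.

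The 2 tumour models were compared in their controls. Between N-Ras+AKT and DEN+CCl4 controls 9 members were higher and 1 was lower (edgeR), 29.4% of the 34, where 40.6% of all genes were called, 20.8% higher and 19.8% lower. The median log2 difference was 0.15, against 0.04 over all genes. In 14 members all N-Ras+AKT controls lay above all DEN+CCl4 controls and in 6 all lay below, against 54.5% of all genes in either direction, 28.4% higher and 26.1% lower. When only the 6 control libraries were fitted, which leaves out the spread of the depletion libraries, 14 members were higher and 6 lower. In that fit 3400 of all 16331 genes were higher and 3435 lower. Without DEN+CCl4 control 7, DEN+CCl4 control 13 or N-Ras+AKT control 15 the higher count of members was 4, and without DEN+CCl4 control 8 it was 5. Over all genes the higher count was 2597, 2642, 3091 and 2859 in that order, against 3538 with every library.

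The members that rose were not the abundant collagens. Timp1 stood at 0.854, 1.07 and 0.723 CPM in DEN+CCl4 controls and at 13.3, 8.04 and 8.03 in N-Ras+AKT controls (log2 3.46, SE 0.65, adjusted p = 0.00199 by edgeR), the largest difference of any member. Mgp stood at 1.07, 1.16 and 1.68 CPM and at 11.5, 6.03 and 6.34 (log2 2.61, SE 0.53, adjusted p = 0.0027). Postn, periostin, a matricellular protein of remodelling tissue, stood at 5.52, 3.94 and 7.98 CPM and at 22.4, 23.0 and 27.6 (log2 2.07, SE 0.53, adjusted p = 0.0107).

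Cross-linkers and contractile genes were also higher. Loxl2 stood at 13.2, 19.5 and 13.6 CPM in DEN+CCl4 controls and at 67.4, 58.3 and 50.1 in N-Ras+AKT controls (log2 1.92, adjusted p = 0.0135 by edgeR), and Lox rose by 2.26 (adjusted p = 0.0368). Acta2 stood at 1.99, 2.89 and 2.52 CPM and at 7.49, 10.4 and 12.2 (log2 2.02, SE 0.67, adjusted p = 0.0332), and Tagln rose by 1.71 (adjusted p = 0.0196). Thy1 (1.06, adjusted p = 0.046) and Col15a1 (0.99, adjusted p = 0.0153) completed the 9. Of the 10 calls, Timp1, Mgp, Postn and Reln were kept with each library left out, and the other 6 were lost without at least 1 library. Col15a1 reached an adjusted p of 0.0616 without DEN+CCl4 control 13 and 0.0507 without N-Ras+AKT control 15, and Loxl2 0.0531 and 0.0528 without DEN+CCl4 controls 7 and 13. Tagln was lost without DEN+CCl4 controls 7 or 8 or N-Ras+AKT control 15 (up to 0.0684), and Acta2 without these or DEN+CCl4 control 13 or N-Ras+AKT control 10 (up to 0.103). Lox was lost without any of the 6 controls or N-Ras+AKT depletion 11 (up to 0.115), and Thy1 without 8 of the 12 libraries (up to 0.144).

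Reln was the member that fell, from 276, 352 and 260 CPM to 38.8, 55.5 and 71.3 (log2 -2.42, SE 0.45, adjusted p = 0.0019 by edgeR). No control of one model came near those of the other in this gene. Lrat, Des, Pdgfrb, Pdgfra and Dcn had differences between -0.45 and 0.36 and overlapped between the models.

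No fibrillar chain passed the test in the fit of all 12 libraries. TMM factors ran from 0.773 to 0.853 in DEN+CCl4 controls and from 1.23 to 1.32 in N-Ras+AKT controls, so levels compared between models rest on this scaling. Col1a1 and Col1a2 differed by -0.10 (SE 0.72) and 0.00 (SE 0.62), and their groups overlapped. Col3a1 was higher in every N-Ras+AKT control, with a difference of 0.56 (SE 0.69, adjusted p = 0.547 by edgeR) that passed when only the 6 control libraries were fitted (adjusted p = 0.026). Col5a2 likewise stood at 26.9, 22.8 and 25.7 CPM against 12.0, 9.56 and 15.0 (1.05, adjusted p = 0.108, or 0.0021 in the 6 libraries). Col3a1 and Col5a2 are neighbours on chromosome 1, 24.6 kb apart and on opposite strands, while the 3 type VI chains and Col14a1 had values from -0.30 to -1.05. The remaining matrix genes that missed the test lay between -0.65 for Bgn and 0.80 for Lum, and the 24 members that missed it lay between -1.05 and 1.05.

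**Figure D4:**
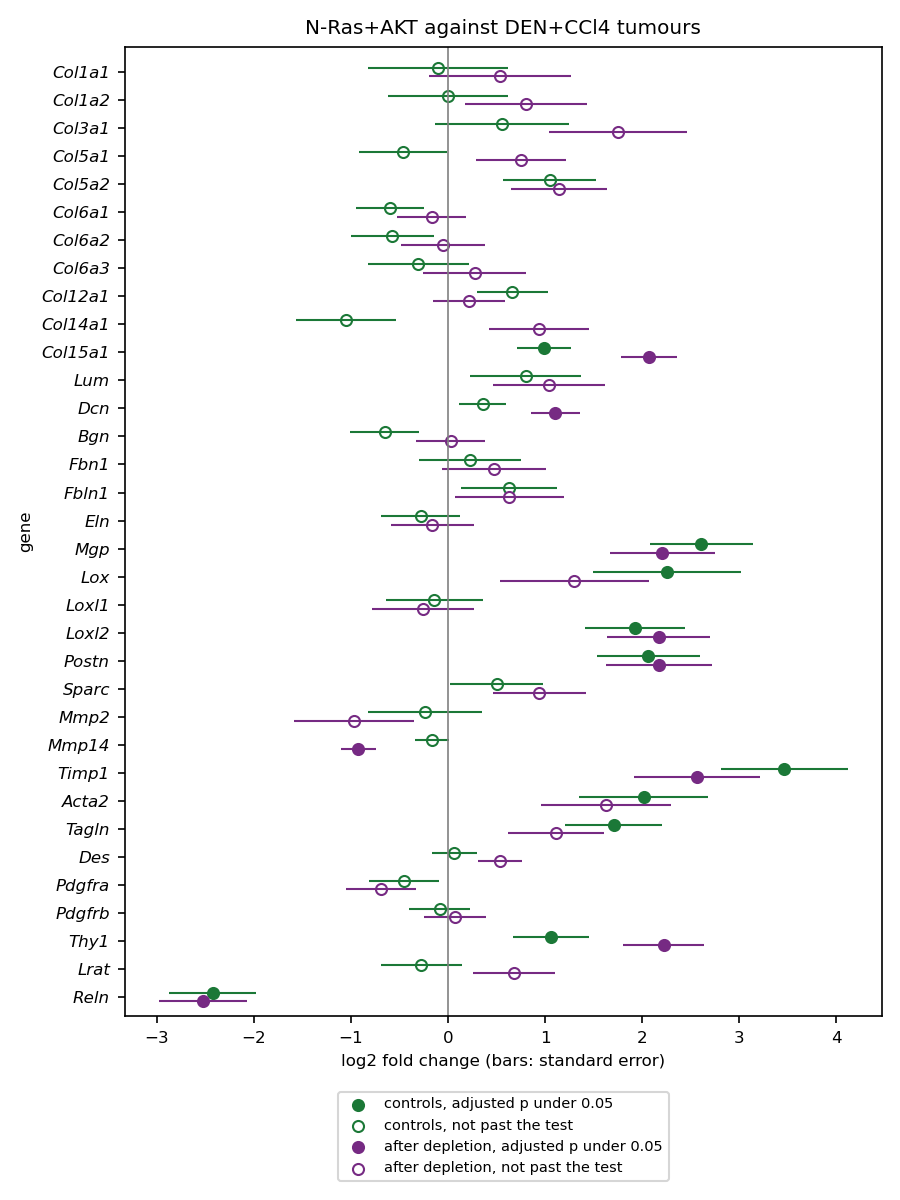
Log2 difference of N-Ras+AKT against DEN+CCl4 tumours with its standard error for each of the 34 genes, in controls (green) and after depletion (purple), with filled points for an adjusted p under 0.05. Timp1, Mgp, Postn, Loxl2, Thy1 and Col15a1 are filled on the higher side and Reln on the lower side in both comparisons.

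Promoter sequence was available in a RefSeq table on GRCm38.p6 for 19 of the 34 members. The 250 bases before the annotated start are printed for Timp1 and Reln, which separated the models most, for Mmp14, which fell after depletion in N-Ras+AKT tumours, and for Col3a1 as a fibrillar collagen. All read in the direction of the gene, and capitals mark GGAATG, the letters recognised by TEAD factors, and CCAAT, the box bound by NF-Y, on either strand (CATTCC and ATTGG are the reverse strand). Each window ends before the gene annotated in GENCODE M21.

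Timp1, chrX:20869916-20870165, plus strand: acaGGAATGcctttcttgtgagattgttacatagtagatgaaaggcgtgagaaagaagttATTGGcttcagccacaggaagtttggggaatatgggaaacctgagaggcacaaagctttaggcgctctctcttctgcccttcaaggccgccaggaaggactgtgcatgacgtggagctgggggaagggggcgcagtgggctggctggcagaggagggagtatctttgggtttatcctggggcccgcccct
Reln, chr5:22344706-22344955, minus strand: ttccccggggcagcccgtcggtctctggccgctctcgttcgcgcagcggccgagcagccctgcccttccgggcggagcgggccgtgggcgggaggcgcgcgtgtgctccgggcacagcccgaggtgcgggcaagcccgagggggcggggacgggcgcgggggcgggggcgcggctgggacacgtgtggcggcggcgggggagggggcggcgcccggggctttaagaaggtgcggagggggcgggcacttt
Mmp14, chr14:54431348-54431597, plus strand: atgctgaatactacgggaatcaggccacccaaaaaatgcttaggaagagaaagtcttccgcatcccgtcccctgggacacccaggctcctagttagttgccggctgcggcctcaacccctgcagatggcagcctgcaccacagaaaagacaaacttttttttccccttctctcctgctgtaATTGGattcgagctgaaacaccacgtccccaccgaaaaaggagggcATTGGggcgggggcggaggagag
Col3a1, chr1:45311288-45311537, plus strand: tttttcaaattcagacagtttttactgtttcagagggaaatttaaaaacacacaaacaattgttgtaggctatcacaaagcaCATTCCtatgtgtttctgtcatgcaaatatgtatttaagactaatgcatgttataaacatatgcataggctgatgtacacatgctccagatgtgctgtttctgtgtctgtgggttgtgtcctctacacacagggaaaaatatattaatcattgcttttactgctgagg

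GGAATG was present in 5 of the 19 members with an entry (Acta2, Col3a1, Col6a2, Lrat and Timp1) and in 12.6% of all 32851 promoter windows of this length. CCAAT was present in 4 of the 19 (Col1a2, Lrat, Mmp14 and Timp1) and in 33.8% of all windows. TGANTCA, the letters bound by AP-1, was present in 1 of the 19 (Col6a1) and in 6.75% of all windows. The CArG box of smooth muscle genes was searched only in its strict form, CC and GG around a core of A and T alone. That form was present in 0 of the 19 and in 1.47% of all windows. Looser forms, longer windows and the members without an entry were not searched. These motifs were searched on both strands after the values were seen, and a match describes letters only.

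Tumours after depletion were also compared between the models. This contrast sets other libraries against each other than the control comparison does. Both come from the same fit of all 12 libraries and share its estimate of the spread, so the 2 sets of calls are not independent. Here 7 members were higher and 2 lower in N-Ras+AKT tumours (edgeR), 26.5% of the 34, where 33.7% of all genes were called. In 9 members the N-Ras+AKT libraries all lay above and in 2 all below, against 46.6% of all genes in either direction. The median was 0.71, against 0.03 over all genes, and it was 0.19 without N-Ras+AKT depletion 6. Timp1 (2.57), Thy1 (2.22), Mgp (2.21), Loxl2 (2.17), Postn (2.17) and Col15a1 (2.07) were again higher, 6 of the 9 members higher in controls and 6 of the 7 higher here. Reln was again lower (-2.53, SE 0.45, adjusted p = 0.00188 by edgeR). Dcn (1.11, adjusted p = 0.00576) and Mmp14 (-0.92, adjusted p = 0.00226) were called in this comparison and not between controls. Limma voom did not call Mgp (adjusted p = 0.0651) or Timp1 (0.089), and Loxl2 just missed the threshold when only the 6 depletion libraries were fitted (0.05). The other 25 lay between -0.97 for Mmp2 and 1.75 for Col3a1 (SE 0.71, adjusted p = 0.0821). Col3a1 passed by limma voom (adjusted p = 0.0462) and by edgeR without the 2 low libraries (1.54, adjusted p = 0.00422). All 9 calls were kept whichever library was left out, and 11 members were higher without the 2 low libraries, as were 2160 of 17409 genes.

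Ratios between collagen chains within a library do not depend on scaling. Per base of exon, Col1a1 over Col1a2 was 1.55, 1.69 and 1.54 in DEN+CCl4 controls and 0.87, 1.87 and 1.42 after depletion. It was 1.49, 1.42 and 1.52 in N-Ras+AKT controls and 1.39, 1.24 and 1.27 after depletion, below every control of that model. DEN+CCl4 depletion 6 was the lowest of the 12 at 0.87, and it was also the highest in Col6a1 over Col6a2, at 5.55 against 2.22 to 2.74 in its controls. Col3a1 over Col1a1 was 1.17, 1.3 and 1.13 in DEN+CCl4 controls and 2.02, 1.90 and 1.73 in N-Ras+AKT controls, and it was 2.10, 2.46 and 2.34 after depletion in N-Ras+AKT tumours.

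With 3 libraries against 3, the smallest p of the exact 2-sided permutation test is 0.1. That value was reached for Col1a1 over Col1a2 and for Col3a1 over Col1a1 in N-Ras+AKT depletion against control and in the comparison of controls, so the ratios are a description. The level of this ratio depends on the gene length used, and that length was the same in all libraries.

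**Figure D5:**
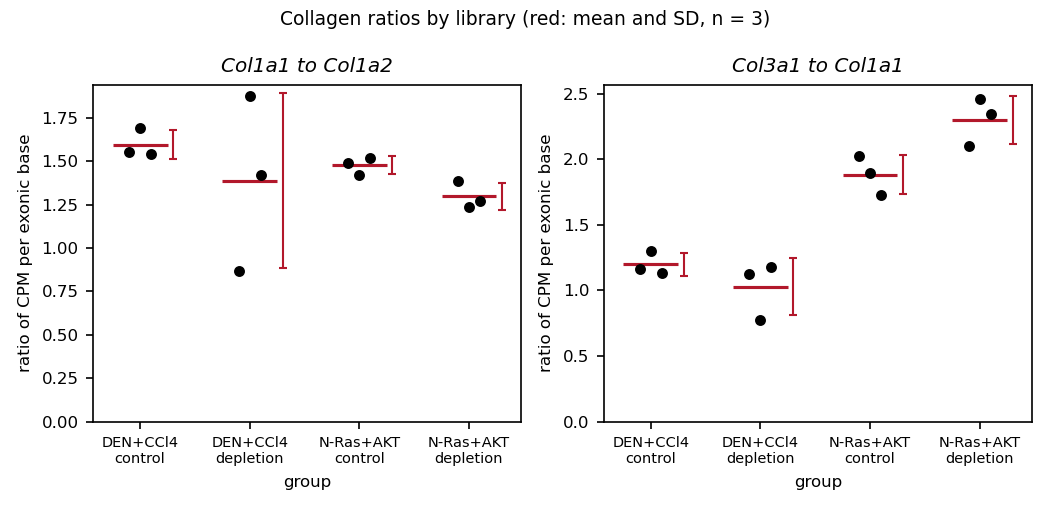
Ratio of Col1a1 to Col1a2 (left) and of Col3a1 to Col1a1 (right) in CPM per exonic base in each library (points), with the mean and SD of the 3 libraries in red. DEN+CCl4 depletion 6 lies at 0.87 in the left panel, and the N-Ras+AKT groups lie above both DEN+CCl4 groups in the right panel.

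Genes that act on these cells and their matrix were described from lists chosen with earlier results of these data known. In the DEN+CCl4 model none of the 106 tested genes of 8 such lists passed the depletion test by edgeR or limma voom, 30 had an unadjusted p under 0.05 (edgeR), and DESeq2 called 2 higher and 11 lower. Over all 17013 genes 3186 had an unadjusted p under 0.05 (edgeR). DESeq2 called 378 higher and 688 lower of 15679 genes. The PDGF ligand list, with a median of -0.92, had 3 of 4 genes with an unadjusted p under 0.05. Pdgfb, which signals through Pdgfrb, stood at 2.13, 2.67 and 2.43 CPM in controls and at 1.11, 1.09 and 1.76 after depletion (log2 -0.87, adjusted p = 0.266). Tgfb1, the main profibrotic cytokine, stood at 15.4, 17.3 and 14.1 CPM and at 6.89, 10.2 and 11.1 (log2 -0.73, SE 0.21, adjusted p = 0.11).

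In the N-Ras+AKT model 12 of 22 genes of the TGF-beta list fell after depletion and 2 rose, with a median of -0.71, where 23.7% of all genes were called. Itgb8 and Itgb6, subunits of integrins that release active TGF-beta, fell by 3.00 and 2.05 (adjusted p of 0.00573 and 0.0214 by edgeR), and Ccn2, connective tissue growth factor, fell by 2.32 (adjusted p = 0.048). Itgb8 stood at 11.9, 10.3 and 23.5 CPM in controls and at 1.07, 3.85 and 0.744 after depletion, and its groups did not overlap. The Ccn2 call was lost without 11 of the 12 libraries, all but depletion 17 (adjusted p of up to 0.12). That of Itgb6 was lost without control 15, depletion 6 or depletion 17 (0.0868, 0.0689 and 0.0859).

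Of the 4 PDGF ligand genes 3 fell in that model, Pdgfd by 1.62, Pdgfb by 1.13 and Pdgfa by 0.78. Over all genes, 10.8% were called lower there. The Pdgfb call was lost without 10 of the 12 libraries and the Pdgfa call without 8, both with the highest adjusted p without control 3 (0.143 and 0.21), and that of Pdgfd was kept. Pdgfb stood at 9.00, 6.13 and 7.27 CPM in controls and at 4.82, 4.07 and 1.35 after depletion. All 4 were higher in N-Ras+AKT than in DEN+CCl4 controls, by 1.63 for Pdgfb, 1.52 for Pdgfc, 1.46 for Pdgfa and 1.32 for Pdgfd. In that comparison 20.8% of all genes were called higher. The calls of Pdgfc and Pdgfd did not survive leaving out DEN+CCl4 control 7 (0.0798 and 0.0622), control 8 (0.0616 and 0.0622) or N-Ras+AKT control 15 (0.0563 and 0.0602), nor that of Pdgfc DEN+CCl4 control 13 or N-Ras+AKT control 10 (0.0579 and 0.0537). Their receptors did not pass, and Pdgfrb differed by -0.08 (SE 0.32) and Pdgfra by -0.45 (SE 0.36).

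Of 22 tested genes that modify or export collagen, 4 fell and 1 rose after depletion in N-Ras+AKT tumours, 22.7%, close to the 23.7% of all genes. Plod2, the lysyl hydroxylase of collagen telopeptides, stood at 16.3, 11.4 and 13.7 CPM in controls and at 4.61, 2.22 and 0.925 after depletion (log2 -2.42, SE 0.50, adjusted p = 0.00849 by edgeR). It was 2.7 higher in N-Ras+AKT than in DEN+CCl4 controls, as was P4ha2, a prolyl hydroxylase subunit, by 3.32. Between these controls 7 of the 22 were lower, among them the procollagen peptidase Adamts14 at -2.80. In all 45.5% of the list were called there, where 40.6% of all genes were. Among 8 collagen receptors, the discoidin receptors parted. Ddr1, of epithelia, stood at 61.0, 47.1 and 64.4 CPM in N-Ras+AKT controls and at 17.8, 17.3 and 3.61 after depletion, and Ddr2, of mesenchymal cells, stood at 1.73, 3.13 and 2.04 CPM and at 7.17, 4.18 and 4.35. Ddr1 fell by 2.16 (adjusted p = 0.00941) and Ddr2 rose by 1.19 (adjusted p = 0.0184), with the Ddr2 call lost without control 3, control 15 or depletion 6 (0.0695, 0.0639 and 0.0739).

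Of 20 tested genes of matrix breakdown, 4 fell after depletion in N-Ras+AKT tumours: Adamts5 by 1.60, Timp3 by 1.37, Adamts1 by 1.29 and Timp2 by 1.21. This is 20% of the list, near the 23.7% of all genes. Adamts1 kept its call with each library left out. Timp3 lost it without control 3 (adjusted p = 0.0508 by edgeR), Timp2 without control 15 or depletion 17 (0.0597 and 0.0692), and Adamts5 without control 3, control 15, depletion 6 or depletion 17 (up to 0.0723). Between controls 6 were higher in N-Ras+AKT tumours, among them the plasminogen activator Plat by 3.56, Mmp12 by 3.09 and the collagenase Mmp13 by 2.09, and 2 were lower, in all 40% of the list where 40.6% of all genes were called.

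Of 16 further stellate markers tested, 5 rose and 2 fell after depletion in N-Ras+AKT tumours, with a median of 0.66. This is 43.8% of the list, where 23.7% of all genes were called. Vipr1 rose by 1.53, Angptl6 by 1.48 and Ecm1 by 1.32, while Rgs5, a signalling regulator also found in pericytes, fell by 2.5 (adjusted p = 0.00606 by edgeR). Rgs5 stood at 307, 183 and 341 CPM in N-Ras+AKT controls, at 60.8, 69.1 and 17.6 after depletion and at between 19.8 and 20.9 in DEN+CCl4 controls. Between controls, Rgs5 was 3.77 higher in N-Ras+AKT tumours and 5 of the 16 were lower, among them Vipr1 at -2.04. In all 37.5% of the list were called there, near the 40.6% of all genes.

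Portal fibroblast and smooth muscle lists had 1 call each after depletion in N-Ras+AKT tumours, 16.7% and 12.5%, where 23.7% of all genes were called. Entpd2 fell by 0.76 among 6 portal fibroblast markers tested, and Smtn fell by 0.83 among 8 smooth muscle markers tested (adjusted p of 0.0144 and 0.0469 by edgeR). The Entpd2 call was lost without depletion 17 (0.0539), and the Smtn call without 9 of the 12 libraries (up to 0.163). Between controls the actin filament gene Tpm2 was 1.54 higher in N-Ras+AKT tumours and Myl9, a myosin light chain, 1.68 higher (lost without DEN+CCl4 control 7 or 8 or N-Ras+AKT control 10 or 15, up to 0.0894). Mylk, the myosin kinase, was lower (-0.32, adjusted p = 0.0355), a call lost without DEN+CCl4 control 7, 8 or 13 or N-Ras+AKT control 3 or 15 (up to 0.107), while no portal fibroblast marker passed by edgeR (0 of 6, with 3 at an unadjusted p under 0.05, and 1 higher and 1 lower by DESeq2 and by limma voom). By edgeR 8411 of all 17013 genes had an unadjusted p under 0.05 between controls. Mesothelial markers summed to at most 5.49 CPM in any library, with Msln and Upk3b at 0 in some.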

How the data were processed

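RNA of frozen tumour tissue was made into poly-A libraries, per the labels' protocols. The authors deposited 1 table of whole-number counts per gene, not normalized. Cell Ranger 3.0.2, RSEM 1.3.1, STAR 2.7.3 and mm10 are named, per the submitters' processing notes, with no role, so the counts may be rounded RSEM estimates. Neither annotation nor strand setting is given in the sources used here. Of 55335 identifiers, 55154 matched GENCODE M21 (GRCm38). The series' 6 single-cell samples were not used here.

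Libraries were scaled by TMM (factors 0.773 to 1.32), filtered with filterByExpr and fitted as 4 group means with edgeR 4.0.16 in R 4.3.3 (quasi-likelihood, robust, 2-sided, 8 residual degrees of freedom, biological coefficient of variation 0.238). Genes were called where the p adjusted over 17013 genes (Benjamini-Hochberg) was under 0.05. CPM are counts scaled to 1000000 per TMM-scaled library. DESeq2 1.42.0, limma voom 3.58.1, DESeq2 size factors, other filters, 6-library fits and left-out libraries were alternatives. The calculation was tested on simulated data.

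The members and lists were chosen with earlier results of these data known. The rule for names gave library values for the members called after depletion and a fixed set of 13 members, and up to 4 genes a list and comparison, those called with the largest change first. Library values of other genes were chosen after they were seen. Groups and replicate numbers came from sample titles. The comparisons of depletion with control, and the difference between them, share libraries with the comparisons between models. Some genes of the lists are not reported here by name.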

Additional observations from a re-analysis of the deposited data

Results flagged for a closer look

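The test of the difference between the models' depletion effects (edgeR) called no member of the set. In the 8 lists of pathway, stroma and matrix genes it called 15 of 106, 14.2%, where 11.6% of all genes were called, and the 13 of them that the naming rule gives are listed here. DESeq2 called 17 higher and 12 lower of the 106, and the members Col14a1 and Mmp14. Over the 16998 genes with an adjusted p it called 1813 higher and 1171 lower. Each value is the log2 effect in N-Ras+AKT tumours minus that in DEN+CCl4 tumours (adjusted p under 0.05). Among stellate and fibroblast markers the differences were 2.40 for Tcf21, 1.93 for Colec11, 1.44 for Angptl6, -2.19 for Rgs5 and 3.51 for Dpt. Tcf21, a transcription factor of resting stellate cells, stood at 3.31, 3.09 and 4.68 CPM in DEN+CCl4 controls, 0.696, 1.47 and 2.59 after depletion, 0.825, 2.24 and 1.49 in N-Ras+AKT controls and 4.47, 2.95 and 2.93 after depletion. Ddr2, a collagen receptor, differed by 2.28 (adjusted p = 0.0127). It stood at 5.84, 6.20 and 7.37 CPM in DEN+CCl4 controls and at 1.88, 3.53 and 3.64 after depletion, while all N-Ras+AKT depletion libraries were above their controls.

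Among genes that process or break down matrix the differences were 1.86 for Pcolce2, -0.73 for Bmp1, 1.78 for Mmp15 and 1.58 for Mmp19. The difference was -1.30 for Skil, a repressor of TGF-beta signalling, and 0.54 for Mylk, the myosin kinase of smooth muscle. Timp4 had -8.22, but it stood at 0, 0.0551 and 0 CPM in DEN+CCl4 controls and 3.24, 0.0862 and 0.308 after depletion, so this fitted value is no measure of size. Of the 13, Skil and Ddr2 kept the call whichever library was left out, with adjusted p of up to 0.0358 and 0.035. The other 11 lost it without at least 4 libraries each, always including DEN+CCl4 control 7, with the highest adjusted p between 0.0596 for Pcolce2 and 0.105 for Rgs5.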

How the results depend on the processing

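Members called higher between controls (9) numbered 5 with no low-count filter, 14 with only the 6 libraries and 4 to 10 with each library left out. Over all genes, higher calls numbered 3140 of 30644 with no filter, 3400 of 16331 with the 6 libraries and 2597 to 3871 with each left out. Without the 2 low libraries Col5a2, Col12a1 and Sparc were also called higher between controls (adjusted p of 0.00235, 0.0472 and 0.021 by edgeR). Members called lower there (1) numbered 6 with only the 6 libraries and 3 without the 2 low libraries, where 3435 of 16331 and 3889 of 17409 genes were. After depletion, 11 members and 2160 of 17409 genes were higher between models without the 2 low libraries. For N-Ras+AKT depletion, members called lower (1) numbered 3 by DESeq2, 6 by limma voom and 2 without the 2 low libraries. They numbered 1 to 4 with each library left out (4 without DEN+CCl4 depletion 6, 3 without N-Ras+AKT depletion 6). Members called higher for N-Ras+AKT depletion (1) numbered 0 with only the 6 libraries and 0 to 1 with each left out. For DEN+CCl4 depletion DESeq2 called 1 lower. For the difference of effects DESeq2 called 1 higher and 1 lower, each count ran from 0 to 1 with libraries left out, and the median ran from -0.16 to 0.60. It was -0.12 without DEN+CCl4 depletion 6 and -0.16 without N-Ras+AKT depletion 6. With the longest protein-coding transcript in place of all exons, mean Col1a1 over Col1a2 moved from 1.60, 1.39, 1.48 and 1.3 to 0.76, 0.661, 0.704 and 0.618 in DEN+CCl4 controls, DEN+CCl4 depletion, N-Ras+AKT controls and N-Ras+AKT depletion, and Col6a1 over Col6a2 from 2.47, 2.49 and 2.97 to 1.48, 1.48 and 1.77 in DEN+CCl4 controls, N-Ras+AKT controls and N-Ras+AKT depletion. Col3a1 over Col1a1 moved to 1.91, 1.64, 3.00 and 3.67 in the 4 groups. The cause of these changes was not tested, except that the gene length sets the ratios. Of 3361 member values under an alternative, 48 gained and 38 lost a call, and 116 changed sign, none of them called.

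The count over all genes for DEN+CCl4 depletion rests on single libraries. It was 63, with 1066 by DESeq2, 171 with no filter and 13 with only the 6 libraries, and with a library left out it ran from 2 without DEN+CCl4 control 8 to 465 without DEN+CCl4 depletion 10 (10 without depletion 6). No paired analysis was possible because the groups compared share fewer than 2 replicate numbers. Depth was ample for most members, while Fbln1, Lox and Thy1 had as few as 7, 5 and 5 counts in a library. Timp1, Mgp and Loxl1 had as few as 11 and Acta2 as few as 14.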
